A study of Mus musculus with 9 samples.

Results

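Grem1-expressing mesenchyme of the mouse forelimb bud at E10.75 (37 to 39 somites) was analysed in single-cell RNA-seq libraries of 3 genotypes. The cells were chosen by their UMIs (unique molecular identifiers, which count RNA molecules): at least 3 Grem1 UMIs, at least 3 UMIs of the limb mesenchyme gene Prrx1, and 0 UMIs of Lbx1, Epcam, Cdh5 and Tyrobp (muscle precursor, epithelium, endothelium and immune cells) and of Shh, Hoxa13 and Pax1 (posterior organiser, autopod and anterior-proximal cells). These Grem1-high cells numbered 2600 of 52432 cells that passed the quality filters, and 2600 of the 27663 cells that met every condition except the one on Grem1, which are called mesenchymal-gated here. The 20471 mesenchymal-gated cells without a Grem1 UMI, called Grem1-zero, served as the comparison within each library.

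Wild-type (Wt) limb buds were compared with limb buds homozygous for one of 2 enhancer deletions, EC1CRM8Δ/Δ (E1C8Δ/Δ) and EC1CRM5Δ/Δ (E1C5Δ/Δ). Both alleles lack several of the cis-regulatory modules that drive Grem1 in the limb bud, and limbs of both mutants lack an anterior digit. Each genotype had 3 libraries, each made from a pair of whole forelimb buds dissociated with collagenase, so that no cell type was sorted out. The Grem1-high cells of the mutants are therefore cells in which Grem1 is still transcribed from a locus with fewer enhancers. They are not all such cells. They held 80.8%, 44.8% and 55.8% of the Grem1 UMIs of mesenchymal-gated cells in E1C8Δ/Δ and 70.9%, 64.3% and 73.2% in E1C5Δ/Δ. In Wt the share was 86.5%, 79.0% and 85.6%, and the rest lay in cells with 1 or 2 Grem1 UMIs.

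GREM1 is a secreted protein that binds BMP ligands and keeps them from their receptors. In the limb bud it links SHH from the posterior mesenchyme to the FGFs of the apical ectodermal ridge: SHH keeps Grem1 on, GREM1 lowers BMP activity, and the ridge goes on making FGFs. Genes such as Id1, Id3, Msx1 and Msx2 are transcribed in response to BMP signalling and are used as its readout, Ptch1, Gli1 and Hhip are read as targets of SHH, and Dusp6 and the Sprouty genes as targets of FGF. In mm10 coordinates (GENCODE M21 annotation) Grem1 lies at chr2:113746164-113758646 on the minus strand, between Fmn1 at chr2:113327736-113716767 on the plus strand and Scg5 at chr2:113776362-113829121 on the minus strand.

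The 3 Wt libraries held 482, 478 and 30 Grem1-high cells, the E1C8Δ/Δ libraries 17, 137 and 204, and the E1C5Δ/Δ libraries 274, 107 and 871. Wt replicate 3 and E1C8Δ/Δ replicate 1 thus rest on few cells. Counts of called genes, and the values of Fmn1 and Id3 for both mutants, are also given without them. The median Grem1-high cell held 22735 to 69322.5 UMIs per library and the median Grem1-zero cell 15816.5 to 41293, and in each of the 9 libraries the Grem1-high cells were the deeper ones. No barcode was shared between libraries among the Grem1-high cells. All 3 Wt libraries are male by their sex-linked genes, against E1C8Δ/Δ replicate 3 and E1C5Δ/Δ replicate 2 among the mutants, so sex and genotype can be told apart only in part.

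The label of the cells was checked against its markers. Prrx1, which the choice required, was found at 596 to 801 CPM (UMIs per 1000000 UMIs of all Grem1-high cells of a library), and the mesenchymal genes Pdgfra and Tbx5, which it did not use, at 74.0 to 113 and 103 to 139 CPM. Of other lineages, the 6 immune markers summed to 0.337 to 3.14 CPM, the 4 neural crest and glia markers to 2.31 to 7.09 CPM, the 8 epithelial markers to 4.64 to 8.62 CPM and the 6 endothelial markers to 12.5 to 16.7 CPM. The 6 muscle progenitor markers summed to 8.72 to 13.2 CPM in Wt, 15.0 to 22.1 CPM in E1C8Δ/Δ and 4.88 to 9.42 CPM in E1C5Δ/Δ. Red blood cell transcripts, dominated by globins, summed to 276 to 3787 CPM in Wt, 216 to 10339 CPM in E1C8Δ/Δ and 467 to 1297 CPM in E1C5Δ/Δ. They were lower in Grem1-high than in Grem1-zero cells of Wt, although no globin gene was called against Grem1-zero cells matched on total UMIs, and in the Grem1-high cells no red blood cell marker passed the test for both mutants against Wt.

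As a check on free RNA in the droplets, Grem1 UMIs were counted in cells of other lineages. Among cells that should lack the gene, at least 3 Grem1 UMIs were found in 1 of 598 Cdh5-positive, 0 of 532 Epcam-positive and 0 of 201 Tyrobp-positive cells, against 9.40% of the mesenchymal-gated cells (95% Clopper-Pearson interval 9.06% to 9.75%). The 2 counts of 0 allow shares of up to 0.564% and 1.49%, and the count of 1 has an upper bound of 0.928%, for counting error only. Their median depths were 30718.5, 18976.5 and 41625 UMIs, against 27902 UMIs in the mesenchymal-gated cells. At least 1 Grem1 UMI was less specific, found in 3.57% to 4.98% of those cells against 26.0% of the mesenchymal-gated ones. In E1C8Δ/Δ alone 3.46% of the mesenchymal-gated cells held at least 3 Grem1 UMIs. There the counts were 0 of 212 Cdh5-positive, 0 of 264 Epcam-positive and 0 of 57 Tyrobp-positive cells. These allow shares of up to 1.42%, 1.14% and 5.26%, the last of them above the E1C8Δ/Δ share.

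The first question was how many Grem1-high cells the enhancer deletions left. Since Grem1 chose the cells, its own levels and the shares of cells are given as a description, with no test, and as the check of the genotypes. Over all mesenchymal-gated cells Grem1 stood at 44.3, 29.3 and 29.5 CPM in Wt, at 12.2, 12.7 and 14.0 CPM in E1C8Δ/Δ and at 19.6, 18.0 and 27.7 CPM in E1C5Δ/Δ, so that all 6 mutant libraries lay below all 3 Wt libraries. Within the Grem1-high cells the median cell held 6, 5 and 8 Grem1 UMIs in Wt, 5, 4 and 4 in E1C8Δ/Δ, and 4 in each E1C5Δ/Δ library. Cells with very high counts were a Wt feature in these libraries: the richest cell held 66, 48 and 62 Grem1 UMIs in Wt, 12, 11 and 25 in E1C8Δ/Δ and 24, 25 and 25 in E1C5Δ/Δ.

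Grem1-high cells made up 15.0%, 11.4% and 7.25% of the mesenchymal-gated cells in Wt (mean 11.2% ± 3.88, SD, n = 3) and 5.52%, 2.70% and 4.11% in E1C8Δ/Δ (4.11% ± 1.41, SD, n = 3), with no overlap between the groups. In E1C5Δ/Δ they made up 11.8%, 8.02% and 14.9% (11.6% ± 3.44, SD, n = 3), which overlapped Wt. The difference from Wt was -7.10 percentage points in E1C8Δ/Δ and 0.356 in E1C5Δ/Δ. For both mutants together it was -3.37 percentage points (n = 3 and 6).

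The order of E1C5Δ/Δ and Wt depended on how the cells were counted. Expected shares with every cell thinned to 10000 UMIs were 4.89%, 2.83% and 2.31% in Wt, 1.27%, 0.750% and 0.834% in E1C8Δ/Δ and 0.859%, 1.02% and 1.80% in E1C5Δ/Δ. After thinning each of the 6 mutant libraries lay below each of the 3 Wt libraries, with a mean difference of -2.26 percentage points, and the 2 mutants differed from each other by 0.272 (E1C5Δ/Δ minus E1C8Δ/Δ), against 7.46 before. Thinning equalises depth and at the same time makes the minimum of 3 UMIs stricter, and the parts of the 2 were not separated. With at least 5 Grem1 UMIs and no thinning the E1C5Δ/Δ difference from Wt was -2.04 percentage points. In cells of 20000 to 60000 UMIs, with the minimum kept at 3, the shares were 8.71%, 7.63% and 13.3% in E1C5Δ/Δ and 15.1%, 10.9% and 2.19% in Wt, so that the groups overlapped. In E1C8Δ/Δ they were 6.04%, 4.72% and 5.46%, a smaller difference from Wt than over all cells, and overlapped Wt as well by the lowest Wt value, which rests on 5 cells. Thinning left out between 25 and 511 mesenchymal-gated cells per library that held fewer UMIs.

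**Figure D1:**
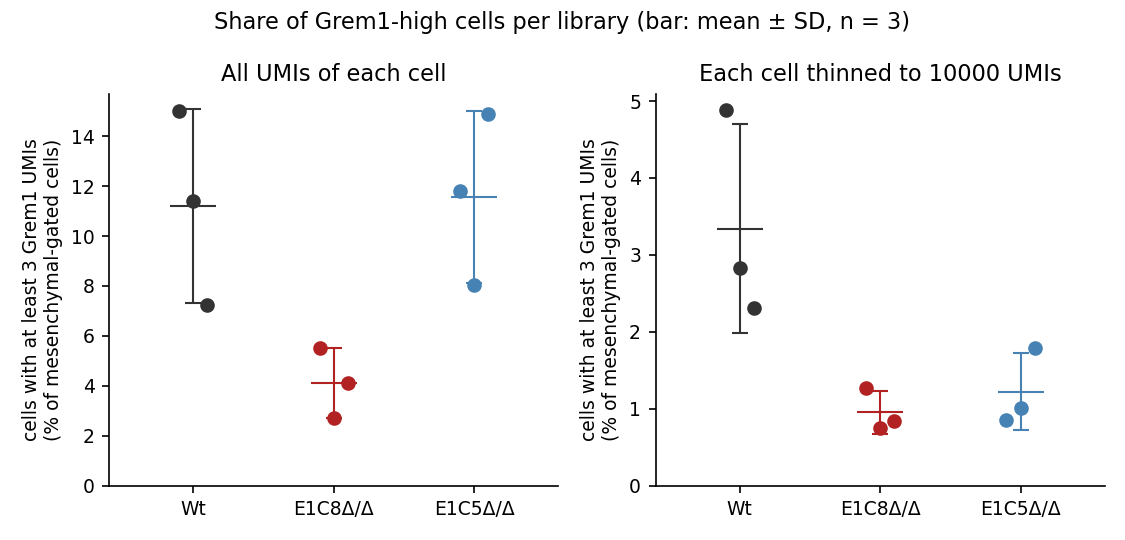
Share of mesenchymal-gated cells with at least 3 Grem1 UMIs, in percent, 1 point per library, with the mean and SD of the 3 libraries of each genotype. With all UMIs (left) E1C5Δ/Δ overlaps Wt, and with each cell thinned to 10000 UMIs (right) all 6 mutant libraries, at 0.750% to 1.80%, lie below the Wt libraries at 2.31% to 4.89%.

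**Figure D2:**
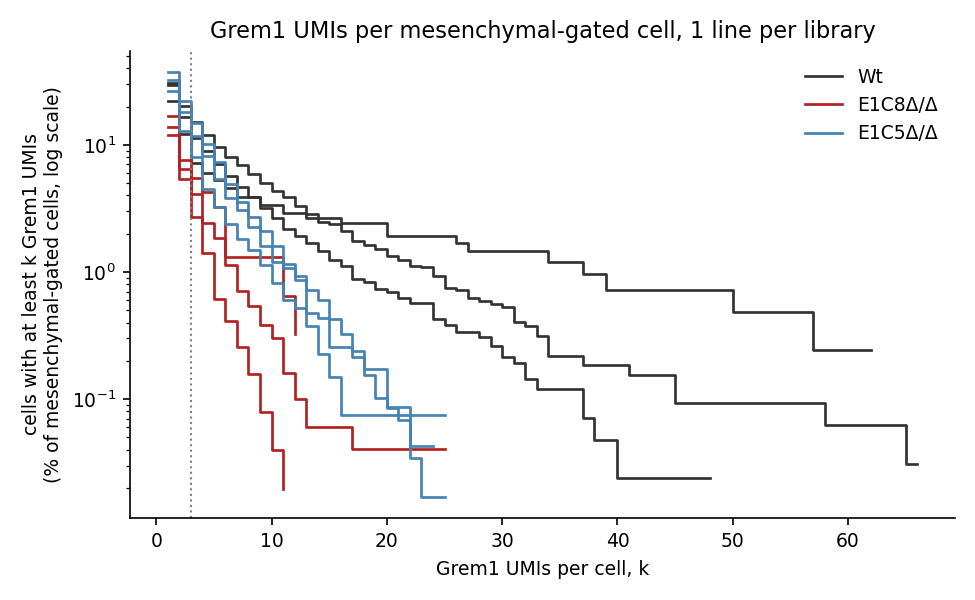
Percent of mesenchymal-gated cells (log scale) with at least k Grem1 UMIs, against k, 1 line per library and the dotted line at the minimum of 3. The Wt lines run on to 48 to 66 UMIs, whereas the E1C8Δ/Δ and E1C5Δ/Δ lines end at 11 to 25.

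The threshold of 3 UMIs cut through a continuum. In Wt, 99, 102 and 5 cells held exactly 3 Grem1 UMIs and 165, 212 and 20 held exactly 2. Cells just inside the threshold held 39.2, 28.4 and 58.4 CPM of Smoc1, against 46.2, 34.3 and 39.6 CPM in all Grem1-high cells. Id3 just inside stood at 137, 104 and 46.7 CPM, against 99.3, 85.9 and 73.8 CPM in all Grem1-high cells. The third value just inside rests on 5 cells for both genes. In replicates 1 and 2 Id3 was higher just inside than in all Grem1-high cells. Over the 3 libraries cells just outside had means of 21.7 CPM of Smoc1 and 162 CPM of Id3, and Grem1-zero cells of 13.8 and 237 CPM. Hoxd13 just inside the threshold, at 12.1, 16.3 and 11.7 CPM, was near the 11.9, 13.6 and 17.0 CPM of Grem1-zero cells, against 36.7, 32.9 and 26.3 CPM in all Grem1-high cells. Fmn1 there stood at 7.09, 5.97 and 0 CPM and Jag1 at 7.09, 4.53 and 15.6 CPM, the last value of each from 5 cells. In the mutants more of the Grem1-high cells lay at the threshold: exactly 3 UMIs were held by 20.5%, 21.3% and 16.7% in Wt, by 23.5%, 47.4% and 40.7% in E1C8Δ/Δ and by 31.4%, 43.9% and 32.1% in E1C5Δ/Δ.

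What sets Grem1-high cells apart was examined in Wt by comparing them with Grem1-zero cells of the same library. UMIs were summed per library and kind of cell, and edgeR's quasi-likelihood test with library as a block was run over 13582 genes (adjusted p by Benjamini-Hochberg, called under 0.05). Genes called made up 38.7% of those tested, with 2948 higher (21.7%) and 2313 lower (17.0%) in Grem1-high cells. Against Grem1-zero cells matched one to one on total UMIs within each library, an alternative chosen after seeing the data, 3059 of 11746 genes were called (26.0%), 1572 higher and 1487 lower.

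Osr2, Smoc1 and Fgf18, the genes that named the cells, were known from earlier results of these data to go with Grem1, so their levels in Wt are a description. Smoc1, which encodes a secreted BMP antagonist, stood at 46.2, 34.3 and 39.6 CPM in Grem1-high cells of Wt and at 15.6, 14.2 and 11.6 CPM in Grem1-zero cells. Fgf18, an FGF ligand, stood at 10.4, 14.0 and 26.7 CPM against 2.76, 3.09 and 3.83 CPM. For both genes the 2 kinds of cell did not overlap. Osr2, a zinc finger transcription factor, stood at 88.1, 64.3 and 51.3 CPM against 45.1, 44.2 and 62.6 CPM, so it overlapped, and in Wt replicate 3 it was lower in the Grem1-high cells.

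Genes of distal mesenchyme were higher in Grem1-high cells of Wt. The M3, M4, dLMP and pLMP lists were built on the study's marker genes for its mesenchymal clusters M3 and M4 and for its distal and peripheral progenitors, which were chosen on these same samples, so their direction is not independent evidence. They are not the study's own scores: Hoxd12 and Hey1 were added to dLMP and Msx1 and Lhx9 to pLMP, and Hoxa13 was left out because it chose the cells. Of the 7 M4 genes all 7 were higher, among them Sall3 (log2 fold change 1.67, SE 0.07), Cyp26b1 (1.64, SE 0.07), which encodes a retinoic acid degrading enzyme, and Hoxd11 (1.12, SE 0.05). Of the 4 M3 genes other than Osr2, Smoc1 and Fgf18, 3 were higher, led by Fmn1 (2.35, SE 0.14) and the semaphorin receptor gene Nrp2 (1.87, SE 0.10), and Wnt11 was not called. Of the 5 dLMP genes 4 were higher, the Notch ligand gene Jag1 most (2.06, SE 0.14), followed by Hoxd13 (1.37, SE 0.08). All 6 pLMP genes were lower, from Msx2 (-1.61, SE 0.12) to Lhx9 (-0.21, SE 0.05).

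Lists of positional genes, built on the study's positional scores from these samples and extended here except for the distal one, split in the same manner. All 4 distal genes were higher (Cyp26b1, Sall3, Lmo2 and Wnt5a) and all 7 proximal genes lower, with Meis1, an added gene that encodes a TALE homeobox factor of the proximal limb, at 31.7, 28.2 and 18.8 CPM in Grem1-high and 94.6, 70.0 and 62.9 CPM in Grem1-zero cells (log2 fold change -1.45, SE 0.08, edgeR adjusted p = 2.1e-13). Of the HoxA genes Hoxa9, Hoxa10 and Hoxa11 were higher and Hoxa2, Hoxa3, Hoxa4, Hoxa5 and Hoxa7 lower. Of the HoxD genes Hoxd8, Hoxd10, Hoxd11, Hoxd12 and Hoxd13 were higher and Hoxd9 lower, and against depth-matched cells Hoxd8 was no longer called. Of the 6 posterior genes 4 were lower (Osr1, Prdm1, Tbx2 and Tbx3) and Hoxd12 was higher, and of the 6 anterior genes Gli3 was higher (0.12, SE 0.03, not called against depth-matched cells) and Alx4, Boc and Sox6 lower.

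BMP readout genes were low where Grem1 was high. Of 10 BMP target and feedback genes 8 were lower in Grem1-high cells and none higher, with a median log2 fold change of -0.56 against 0.00 over all genes tested, and the same 8 were lower against depth-matched cells. Of all genes 17.0% were called lower, and 1487 of 11746 against depth-matched cells. Id3, an inhibitor of basic helix-loop-helix factors, stood at 99.3, 85.9 and 73.8 CPM in Grem1-high and at 249, 227 and 234 CPM in Grem1-zero cells of Wt (log2 fold change -1.39, SE 0.05, edgeR adjusted p = 4.0e-17). Msx2, a homeobox gene, stood at 9.40, 6.96 and 10.0 CPM against 22.8, 26.6 and 31.9 CPM. Neither gene overlapped between the 2 kinds of cell. Id1, Id2, Id4, Msx1, Smad6 and the pseudoreceptor gene Bambi were the other 6, and Smad7 (-0.06) and Atoh8 (0.10) were not called.

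Other parts of the BMP pathway went both ways, beside 21.7% of all genes called higher and 17.0% called lower. For antagonists and ligands the share called higher was near that of all genes. Among 11 tested antagonists Nbl1 was higher, beside Smoc1 described above, and Nog, Fst, Fstl1, Bmper and Sostdc1 lower. Against depth-matched cells Nog was not called, and Bmper, with 3 UMIs in all Grem1-high cells of Wt, was not tested. Among 9 ligands Bmp2 (1.02, SE 0.14) and Bmp7 (0.44, SE 0.06) were higher and Bmp4, Bmp5, Gdf5 and Gdf6 lower. Bmp4 stood at 51.9, 46.9 and 34.6 CPM in Grem1-high and 71.9, 68.6 and 74.1 CPM in Grem1-zero cells of Wt (log2 fold change -0.55, SE 0.07). Of 11 receptor and Smad genes 6 were higher, 4 of them against depth-matched cells. Lower were Bmpr1b, a type I receptor gene with a role in cartilage condensation (-1.36, SE 0.10), and Smad9 (-2.40, SE 0.50). Smad9 held only 5 UMIs in all Grem1-high cells of Wt and was not tested against depth-matched cells.

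Many genes of the other signals in the feedback loop were higher, fewer of them against depth-matched cells. Of all genes 21.7% were called higher and 17.0% lower, and against depth-matched cells 1572 and 1487 of 11746. Of 11 hedgehog pathway genes 8 were higher and 2, the co-receptor genes Cdon and Boc, lower. Ptch1, which encodes the SHH receptor and rises with SHH signalling, stood at 103, 81.4 and 81.3 CPM in Grem1-high and 52.7, 45.6 and 42.5 CPM in Grem1-zero cells (log2 fold change 0.91, SE 0.05). Against depth-matched cells 4 of the 8 were still called (Ptch1, Gli1 and Gas1 among them). Of 10 FGF response genes 7 were higher, Spry2 most (0.81, SE 0.07), and 5 of them against depth-matched cells (Spry2, Spry4, Etv4, Etv5 and Il17rd). Among the FGF receptors Fgfr1 was slightly higher (0.13, SE 0.03, not called against depth-matched cells) and Fgfr2, Fgfr3, Fgfr4 and Fgfrl1 lower. Fgfr4 held only 8 UMIs in all Grem1-high cells of Wt and was not tested against depth-matched cells.

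Cartilage genes were low. The counts that follow stand beside 21.7% of all genes called higher and 17.0% lower, and 1572 and 1487 of 11746 against depth-matched cells. Of 12 chondrogenic genes 11 were lower in Grem1-high cells and 9 of 10 against depth-matched cells. Sox9, the transcription factor of chondrogenic fate, stood at 179, 177 and 165 CPM in Grem1-high against 376, 319 and 370 CPM in Grem1-zero cells (log2 fold change -0.99, SE 0.05), and Col2a1, its collagen target, changed by -1.42 (SE 0.06). Of 12 proliferation genes 7 were slightly higher, none by more than 0.35 on the log2 scale, and the cell cycle inhibitor gene Cdkn1c was lower (-0.89, SE 0.05). Against depth-matched cells 5 were higher and 2 lower, and Cdk1 changed sign (from 0.16 to -0.06). Of 9 genes of the dissociation response 6 were lower (5 of 7 against depth-matched cells), with Jun at 79.8, 93.3 and 70.5 CPM against 176, 175 and 175 CPM, and whether handling plays a part in this was not tested.

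The 10 called genes with the largest rise that agreed in all 3 Wt libraries, with a mean of at least 10 CPM in the higher kind of cell, were Fgf18, already described, Jag1, Smim41, Socs2, Nrp2, Sall3, Sall1, Cyp26b1, Pam and Meox2. Fmn1, with a larger rise, lay just under that minimum. Socs2, a suppressor of cytokine signalling, stood at 60.2, 48.0 and 36.3 CPM against 14.3, 13.5 and 9.73 CPM (log2 fold change 1.96, SE 0.09), and Meox2, a homeobox gene, at 114, 107 and 128 CPM against 38.8, 37.3 and 56.9 CPM (1.49, SE 0.07). The 10 with the largest fall by the same rule were Foxc1, Gsc, Unc5c, Sned1, Creb5, Pcdh17, Igfbp5, Fibin, Rhoj and Maf. Gsc, a homeobox gene, stood at 7.22, 13.1 and 2.92 CPM against 44.3, 61.6 and 31.6 CPM (-2.40, SE 0.14). In all 20 the direction was that of every Wt library by the way they were picked.

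**Figure D3:**
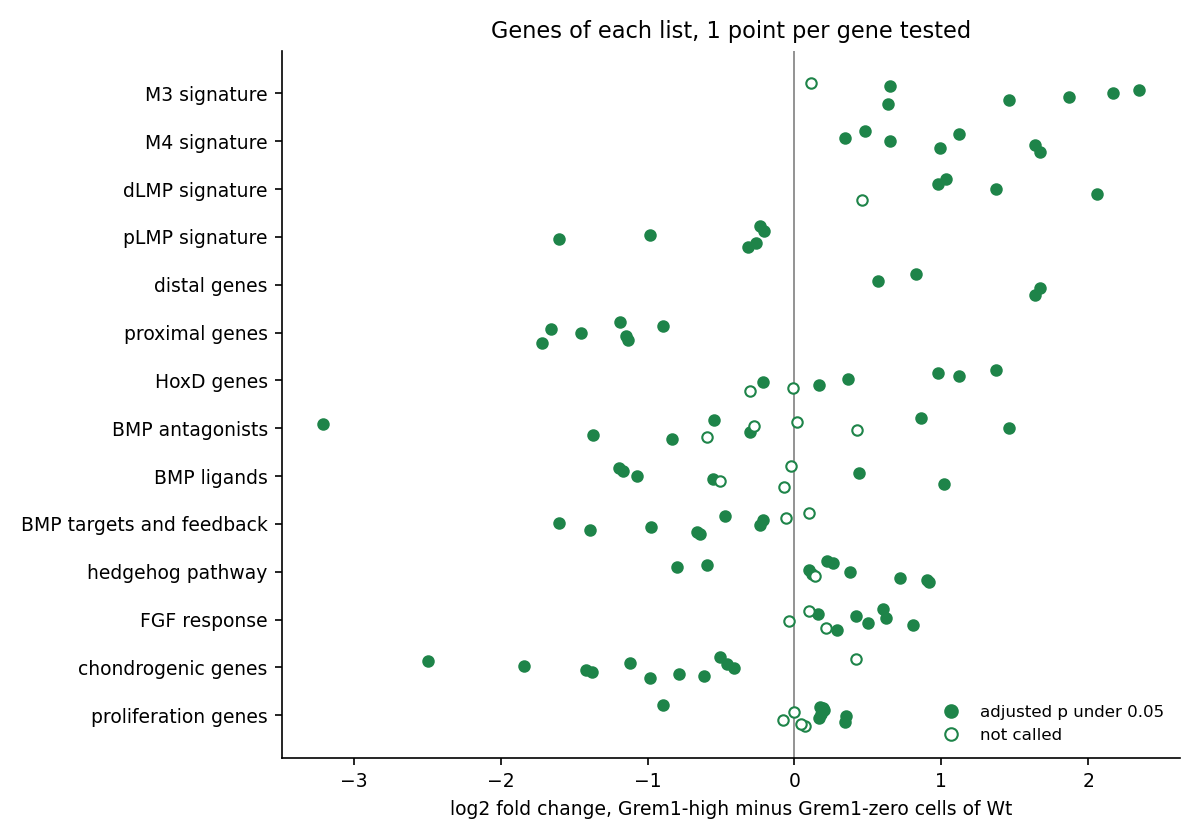
Log2 fold change between Grem1-high and Grem1-zero cells of Wt (positive means higher in Grem1-high cells) for the tested genes of 14 lists, 1 point per gene, filled where the edgeR adjusted p is under 0.05. All 7 proximal genes and 11 of 12 chondrogenic genes lie below 0 and are called, as are 8 of 10 BMP target and feedback genes, and all 4 distal genes lie above 0.

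The next question was whether the residual Grem1-high cells of the mutants differ from those of Wt. The summed UMIs of Grem1-high cells in the 9 libraries were tested in the same way over 11180 genes, with genotype as the factor. The mean of both mutants differed from Wt in 73 genes (0.653%), 22 higher (0.197%) and 51 lower (0.456%). E1C8Δ/Δ alone gave 423 genes (3.78%) and E1C5Δ/Δ alone 68 (0.608%). These counts and their order rest on few libraries: without E1C8Δ/Δ replicate 2 they were 38 and 61, in cells of 20000 to 60000 UMIs 17 and 33, and with sex as a covariate 36 and 6. That window of depth left 5 Grem1-high cells in Wt replicate 3 and 9 in E1C8Δ/Δ replicate 1, under the minimum of 10 cells. All fits in the window therefore lack these libraries. In the Grem1-zero cells the mean of both mutants differed from Wt in 167 of 15215 genes (1.10%). Within the 5 male libraries, which leave 1 library of each mutant so that the spread is that of the 3 Wt libraries, 13 genes were called for both mutants (0.112% of 11582). The count was 13 also in the 7 libraries with at least 100 Grem1-high cells, where 7 of the 32 single genes named for both mutants were still called. Because mutant cells met the threshold with fewer Grem1 UMIs, the comparison was repeated with at least 5 Grem1 UMIs, which called 19 genes. Of the single genes named for both mutants that were tested there, it kept the calls of 7 of 29 and lost 22. Which calls it kept is not given here, so those of the BMP target genes below are not shown to hold at that minimum. The fewest were called in cells of 20000 to 60000 UMIs (9) and with sex as a covariate (5). The 7 libraries with at least 100 Grem1-high cells, with 13 genes called at all depths, are those that the window kept. Of the single genes named for both mutants, the window of depth kept the calls of 5 of 31, Osr2, Fmn1, Msx1, Msx2 and Id3, and sex as a covariate those of 4 of 32, Fmn1, Id3, Tmem267 and Runx1t1, and no direction turned. Scg5 was not tested in the window.

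Both genes that flank Grem1 had fewer UMIs in the mutants. Fmn1 encodes formin 1, an actin regulator. Fmn1 stood at 12.7, 8.98 and 8.34 CPM in Grem1-high cells of Wt, at 4.63, 2.09 and 2.56 CPM in E1C8Δ/Δ and at 1.53, 1.35 and 2.77 CPM in E1C5Δ/Δ. The mutant libraries did not overlap Wt, with a log2 fold change of -2.13 (SE 0.22, edgeR adjusted p = 0.0011), and of -2.41 (adjusted p = 0.0049) in the male libraries and -2.25 (adjusted p = 0.0082) in the libraries with at least 100 cells. The Grem1 limb enhancers are known to lie in and beside Fmn1, and which Fmn1 sequence each allele lacks was not analysed here, so that fewer transcripts and transcripts that lack counted sequence cannot be told apart in this value.

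Scg5, on the other side of Grem1, encodes a secretory chaperone and was scarce. It stood at 1.45, 1.62 and 1.67 CPM in Wt, at 0, 0 and 0.269 CPM in E1C8Δ/Δ and at 0.106, 0.505 and 0.135 CPM in E1C5Δ/Δ, from 76, 2 and 12 UMIs in all. The fitted log2 fold change was -3.19 (SE 0.49, adjusted p = 0.016), lost in the male libraries (adjusted p = 0.38). Arhgap11a, the next gene, did not pass the test (-0.02, SE 0.16, adjusted p = 0.99).

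Of the 7 M3 signature genes Osr2, Smoc1, Fgf18 and Fmn1 were lower in the mutants, and Nrp2, Lmx1b and Wnt11 were not called. Osr2 stood at 88.1, 64.3 and 51.3 CPM in Wt, 33.6, 21.2 and 18.9 CPM in E1C8Δ/Δ and 32.3, 23.6 and 16.3 CPM in E1C5Δ/Δ (log2 fold change -1.58, SE 0.21, adjusted p = 0.0097, and adjusted p = 0.0052 in the male libraries). It fell also in Grem1-zero cells, by 2.21 on the log2 scale (SE 0.23, adjusted p = 0.0027). Nrp2, by contrast, stood at 271, 173 and 158 CPM in Wt, 274, 232 and 180 CPM in E1C8Δ/Δ and 164, 173 and 139 CPM in E1C5Δ/Δ, and both mutants overlapped Wt (-0.08, SE 0.15, adjusted p = 0.87). Smoc1 (-0.70, SE 0.13, adjusted p = 0.030) was not called in the male libraries (adjusted p = 0.13).

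Fgf18 reached 6.94, 9.94 and 9.83 CPM in E1C8Δ/Δ and 3.92, 5.89 and 4.45 CPM in E1C5Δ/Δ, below the 3 Wt libraries (log2 fold change for both -1.18, SE 0.25, adjusted p = 0.046). The E1C5Δ/Δ value was -1.72 (SE 0.28, adjusted p = 0.011) and the E1C8Δ/Δ value -0.65 (SE 0.31, adjusted p = 0.26), and their difference did not pass the test (-1.06, SE 0.33, adjusted p = 0.084). The call for both mutants did not hold without 1 library for 7 of the 9 libraries, Wt replicate 3 with the highest value among them (-0.89, adjusted p = 0.067), nor in the male libraries (adjusted p = 0.46).

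The BMP target genes Id3, Msx1, Msx2 and Bambi rose in the residual Grem1-high cells. All 10 BMP target and feedback genes had a positive log2 fold change (median 0.45 against -0.00 over all genes tested), and 4 of 10 passed the test, beside 0.197% of all genes called higher. Id3 stood at 99.3, 85.9 and 73.8 CPM in Wt, 234, 189 and 190 CPM in E1C8Δ/Δ and 146, 146 and 140 CPM in E1C5Δ/Δ. The 3 genotypes did not overlap, and Id3 was called in both mutants together (0.97, SE 0.10, adjusted p = 0.0011), in E1C8Δ/Δ (1.20, SE 0.12, adjusted p = 0.00043) and in E1C5Δ/Δ (0.75, SE 0.11, adjusted p = 0.010). It was called also in the male libraries (0.99, adjusted p = 0.017) and in those with at least 100 cells (0.86, adjusted p = 0.017).

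Msx1, which marks undifferentiated mesenchyme, stood at 97.3, 62.4 and 65.5 CPM in Wt, 130, 173 and 173 CPM in E1C8Δ/Δ and 114, 127 and 144 CPM in E1C5Δ/Δ, with no overlap of mutants and Wt (log2 fold change 0.94, SE 0.14, adjusted p = 0.013). Msx2 rose from 9.40, 6.96 and 10.0 CPM to 16.2, 13.9 and 17.0 CPM in E1C8Δ/Δ and 11.9, 12.8 and 16.7 CPM in E1C5Δ/Δ (0.83, SE 0.16, adjusted p = 0.030), and Bambi from 26.5, 24.9 and 22.5 CPM to 66.0, 48.1 and 45.8 CPM and to 33.6, 33.0 and 35.9 CPM (0.74, SE 0.11, adjusted p = 0.012). In the male libraries Msx1 was still called (adjusted p = 0.044), and Msx2 (adjusted p = 0.21) and Bambi (adjusted p = 0.18) were not. The levels of Id3 and Msx2 in mutant Grem1-high cells stayed below those in the Grem1-zero cells of the same genotype, as the plot of levels shows. In Grem1-zero cells of E1C8Δ/Δ Id3 stood at 384, 377 and 318 CPM, against 249, 227 and 234 CPM in Wt. Msx1 stood there at 125, 140 and 139 CPM against 104, 83.7 and 73.4 CPM. Msx2 stood there at 41.8, 53.4 and 43.6 CPM against 22.8, 26.6 and 31.9 CPM. In Grem1-zero cells these genes thus rose without overlap in E1C8Δ/Δ, and in E1C5Δ/Δ they overlapped Wt. Id1 (0.36), Id2 (0.55), Id4 (0.23), Smad6 (0.12), Smad7 (0.14) and Atoh8 (0.22) did not pass the test.

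**Figure D4:**
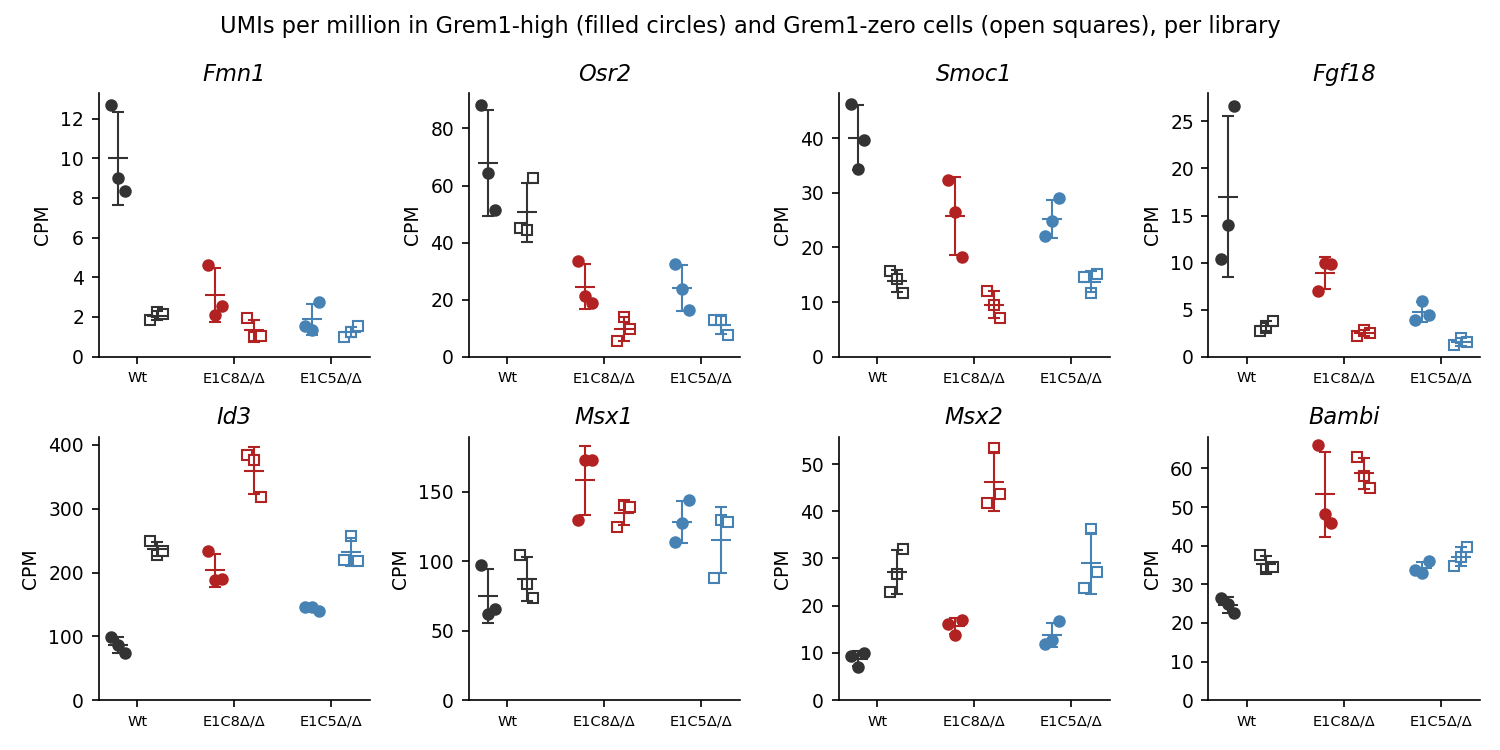
CPM of 8 genes in Grem1-high cells (filled circles) and Grem1-zero cells (open squares), 1 point per library with the mean and SD of the 3 libraries of each genotype. Fmn1 in Grem1-high cells of Wt, at 8.34 to 12.7 CPM, stands above all other sums, and Id3 in Grem1-high cells runs from 73.8 to 99.3 CPM in Wt, 140 to 146 CPM in E1C5Δ/Δ and 189 to 234 CPM in E1C8Δ/Δ.

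Of the genes read as targets of SHH, Ptch1 and Hhip fell. They were the 2 called among 11 hedgehog pathway genes, and none was higher. Ptch1 stood at 103, 81.4 and 81.3 CPM in Wt, 76.4, 59.4 and 51.0 CPM in E1C8Δ/Δ and 56.9, 50.7 and 70.6 CPM in E1C5Δ/Δ, without overlap of mutants and Wt (log2 fold change -0.57, SE 0.11, adjusted p = 0.039). Hhip, which encodes a membrane protein that binds hedgehog ligands, fell by 1.68 on the log2 scale (SE 0.27, adjusted p = 0.016), and in Grem1-zero cells by 1.25 (SE 0.17, adjusted p = 0.011). In the male libraries Ptch1 (adjusted p = 0.13) and Hhip (adjusted p = 0.055) were not called. Gli1 stood at 17.9, 16.5 and 16.3 CPM in Wt, 16.2, 13.1 and 11.4 CPM in E1C8Δ/Δ and 10.5, 8.59 and 13.3 CPM in E1C5Δ/Δ, and its change did not pass the test (-0.50, SE 0.14, adjusted p = 0.11).

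The FGF response, the M4 signature and positional genes gave few calls or none. None of 10 FGF response genes passed the test for both mutants (median log2 fold change -0.08). Dusp6 stood at 79.1, 62.1 and 70.5 CPM in Wt, 94.9, 74.8 and 81.8 CPM in E1C8Δ/Δ and 47.2, 53.1 and 71.6 CPM in E1C5Δ/Δ. None of 7 M4, 7 proximal, 4 distal and 9 HoxA genes was called for both mutants, nor any of 12 proliferation and 9 chondrogenic genes. In E1C8Δ/Δ alone Hoxa5 (0.63), Hoxa9 (0.55), Hoxa10 (0.40) and Spry1 (0.77) were higher and Mki67 (-0.46) and the posterior gene Hand2 (-0.69) lower. Beside these, the muscle precursor marker Pax3 was called higher in E1C8Δ/Δ (2.04) and all 5 tested red blood cell markers had a positive log2 fold change (median 1.57, none called), and the part of other cells' RNA was not tested. In E1C5Δ/Δ alone Col2a1 (-1.27), the posterior gene Osr1 (-0.97) and Jag1 (-1.08) were lower. Hoxd12, a posterior gene that was added to the dLMP list, was lower, at 30.8, 26.5 and 42.1 CPM in Wt, 26.6, 16.5 and 17.0 CPM in E1C8Δ/Δ and 15.7, 11.3 and 12.2 CPM in E1C5Δ/Δ (log2 fold change -1.02, SE 0.16, adjusted p = 0.016), overlapping Wt by the first E1C8Δ/Δ library, which held 17 cells, and it was not called in the male libraries (adjusted p = 0.074).

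Among the pLMP genes Msx1 and Msx2, already named, were the 2 called, and all 6 had a positive log2 fold change (median 0.74). Lhx2, a LIM homeobox gene, changed by 0.66 (SE 0.15, adjusted p = 0.067) and Rspo4, a WNT agonist gene, by 0.95 (SE 0.27, adjusted p = 0.14). In E1C5Δ/Δ alone Lhx2 (0.87, SE 0.17, adjusted p = 0.032) and Rspo4 (1.48, SE 0.28, adjusted p = 0.029) passed.

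The genes named by size among those called for both mutants, with no overlap of mutants and Wt and at least 10 CPM in the higher group, were 10 that rose and the first 10 of 24 that fell. Those that rose were Tmem267, Id3, Msx1, Msx2, Rrp36, Zfp61, Bambi, B3galt6, Insig1 and Ube2t. Rrp36, a ribosomal RNA processing gene, stood at 29.3, 20.4 and 32.1 CPM in Wt, 67.1, 49.2 and 41.6 CPM in E1C8Δ/Δ and 43.0, 43.8 and 39.9 CPM in E1C5Δ/Δ (log2 fold change 0.81, SE 0.15, adjusted p = 0.026), and was called also in Grem1-zero cells (0.67, SE 0.14, adjusted p = 0.046). Those that fell were Eif3j2, Osr2, Fgf18, Cgnl1, Ptpn14, Pmaip1, Notch1, Dock6, Runx1t1 and Celf2. Eif3j2 has a near-identical copy, Eif3j1, with which it can share reads, so its value (-2.63, SE 0.46) is uncertain. Notch1, a receptor for Jag1, stood at 10.0, 10.5 and 11.3 CPM in Wt, 4.63, 6.28 and 5.52 CPM in E1C8Δ/Δ and 5.24, 6.06 and 5.56 CPM in E1C5Δ/Δ (-0.88, SE 0.14, adjusted p = 0.017), and fell in Grem1-zero cells as well (-0.87, SE 0.15, adjusted p = 0.024).

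The 2 mutants differed from each other in 392 of 11180 genes (3.51%), 221 higher and 171 lower in E1C5Δ/Δ. The count fell to 55 without E1C8Δ/Δ replicate 2, 105 without E1C8Δ/Δ replicate 3 and 209 without E1C8Δ/Δ replicate 1. It was 188 and 197 without E1C5Δ/Δ replicates 1 and 2, 78 in cells of 20000 to 60000 UMIs and 144 with a replicate block. The window fit lacks E1C8Δ/Δ replicate 1 and Wt replicate 3. The male libraries hold 1 library of each mutant, so no count is given for them. The genes below are given with these limits. Id3 (-0.45, SE 0.12, adjusted p = 0.048) and Bambi (-0.54, SE 0.12, adjusted p = 0.030) were lower in E1C5Δ/Δ than in E1C8Δ/Δ. Dlx5, a distal-less homeobox gene, stood at 6.94, 4.97 and 3.64 CPM in E1C8Δ/Δ against 0.847, 1.01 and 0.904 CPM in E1C5Δ/Δ and 1.18, 0.526 and 1.67 CPM in Wt (E1C5Δ/Δ minus E1C8Δ/Δ -2.33, SE 0.38, adjusted p = 0.0073). Col2a1 stood at 27.8, 38.7 and 26.3 CPM in E1C8Δ/Δ against 11.0, 10.6 and 16.0 CPM in E1C5Δ/Δ (-1.27, SE 0.23, adjusted p = 0.014). The muscle precursor gene Pax3 moved in the same comparison (-2.41, SE 0.49, adjusted p = 0.021), and the part of other cells' RNA in these differences was not tested.

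Whether a change was particular to Grem1-high cells was tested as an interaction, the mean Grem1-high minus Grem1-zero difference of the mutants less that of Wt, in the fit with all 18 sums. This called 55 of 13582 genes (0.405%), 19 positive (0.140%) and 36 negative (0.265%). Id3 was again first among the BMP targets (0.64, SE 0.06, adjusted p = 3.6e-07), with Msx1 (0.48, SE 0.07, adjusted p = 0.0014), Id2 (0.36, SE 0.06, adjusted p = 0.0036) and Bambi (0.31, SE 0.07, adjusted p = 0.032), which makes 4 of 10 in that list. Msx2 was not called. For Msx1 the direction turned: its Grem1-high minus Grem1-zero log2 difference was -0.24 in Wt (adjusted p = 0.0015), 0.29 in E1C8Δ/Δ (adjusted p = 0.0020, 18.9% of all genes called) and 0.19 in E1C5Δ/Δ (adjusted p = 0.0029, 32.7% of all genes called). Against depth-matched Grem1-zero cells 1 gene was called in edgeR, Id3 (0.65, adjusted p = 0.0095). Of 11746 genes 630 had an unadjusted p under 0.05, near the share expected if none differed. The median estimates there were 0.37 against 0.33 for the BMP targets, -0.75 against -0.73 for the dLMP genes and 0.51 against 0.33 for the pLMP genes. For the M3 genes they were 0.15 against -0.06 and for the hedgehog genes -0.01 against -0.05. Both fits used the same Grem1-high sums, so their estimates are not independent, and the part of depth was not tested.

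Fmn1 (-1.37, SE 0.22, adjusted p = 0.0036), Jag1 (-0.93, SE 0.19, adjusted p = 0.022), Hoxd12 (-0.73, SE 0.09, adjusted p = 6.3e-05) and Hoxd13 (-0.58, SE 0.11, adjusted p = 0.016) lost part of their Wt excess in Grem1-high cells. With at least 5 Grem1 UMIs these 4 values were -1.22, -1.07, -0.79 and -0.67, and all 4 were called (Fmn1, Jag1, Hoxd12 and Hoxd13, edgeR adjusted p from 0.0022 to 0.022). That minimum kept 9 of 26 single-gene interaction calls, and it did not equalise Grem1. Of its cells 138 of 309, 111 of 298 and 14 of 22 in Wt held 10 or more Grem1 UMIs. In E1C8Δ/Δ 4 of 10, 2 of 31 and 15 of 92 did, and in E1C5Δ/Δ 28 of 126, 11 of 43 and 93 of 425. The part of this difference in the 4 values was not tested. Jag1 stood at 12.9, 10.6 and 17.1 CPM in Grem1-high cells of Wt, 17.4, 11.2 and 6.87 CPM in E1C8Δ/Δ and 5.50, 6.06 and 6.29 CPM in E1C5Δ/Δ, against 1.92 to 4.40 CPM in the Grem1-zero cells of all 9 libraries. The values of E1C8Δ/Δ spanned those of Wt, and those of E1C5Δ/Δ lay below. By mutant the Jag1 interaction was -0.60 in E1C8Δ/Δ (adjusted p = 0.69) and -1.27 in E1C5Δ/Δ (adjusted p = 0.00065). Osr2 was not called here (0.42, SE 0.16, adjusted p = 0.49), nor were Smoc1 (-0.32, SE 0.10, adjusted p = 0.29) and Fgf18 (-0.44, SE 0.16, adjusted p = 0.41).

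The genes of largest size in the interaction were Camk1d, Dlx5, Nrgn, Id3 and Shox2 on the positive side and Rprml, Fmn1, Jag1, Pdzd2 and Nbl1 on the negative side. Shox2, a homeobox gene of the proximal limb, stood at 445, 426 and 345 CPM in Grem1-high and 552, 504 and 660 CPM in Grem1-zero cells of Wt. It stood at 670, 406 and 409 CPM against 448, 528 and 476 CPM in E1C8Δ/Δ, higher in Grem1-high cells only in the library with 17 of them, and at 417, 378 and 507 CPM against 343, 359 and 404 CPM in E1C5Δ/Δ. The interaction was 0.52 for both mutants (SE 0.12, adjusted p = 0.049), 0.36 for E1C8Δ/Δ (adjusted p = 0.67) and 0.67 for E1C5Δ/Δ (adjusted p = 0.0077). Nbl1, a BMP antagonist gene of the DAN family to which Grem1 also belongs, stood at 6.99, 9.23 and 13.3 CPM in Grem1-high cells of Wt, 6.94, 8.89 and 8.22 CPM in E1C8Δ/Δ and 2.54, 6.06 and 3.29 CPM in E1C5Δ/Δ. In Grem1-zero cells it stood at 4.30, 5.03 and 5.16 CPM in Wt, 7.25, 8.56 and 6.10 CPM in E1C8Δ/Δ and 3.94, 5.47 and 3.51 CPM in E1C5Δ/Δ. Its interaction (-0.82, SE 0.15, edgeR adjusted p = 0.011) thus includes higher Grem1-zero levels in E1C8Δ/Δ.

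**Figure D5:**
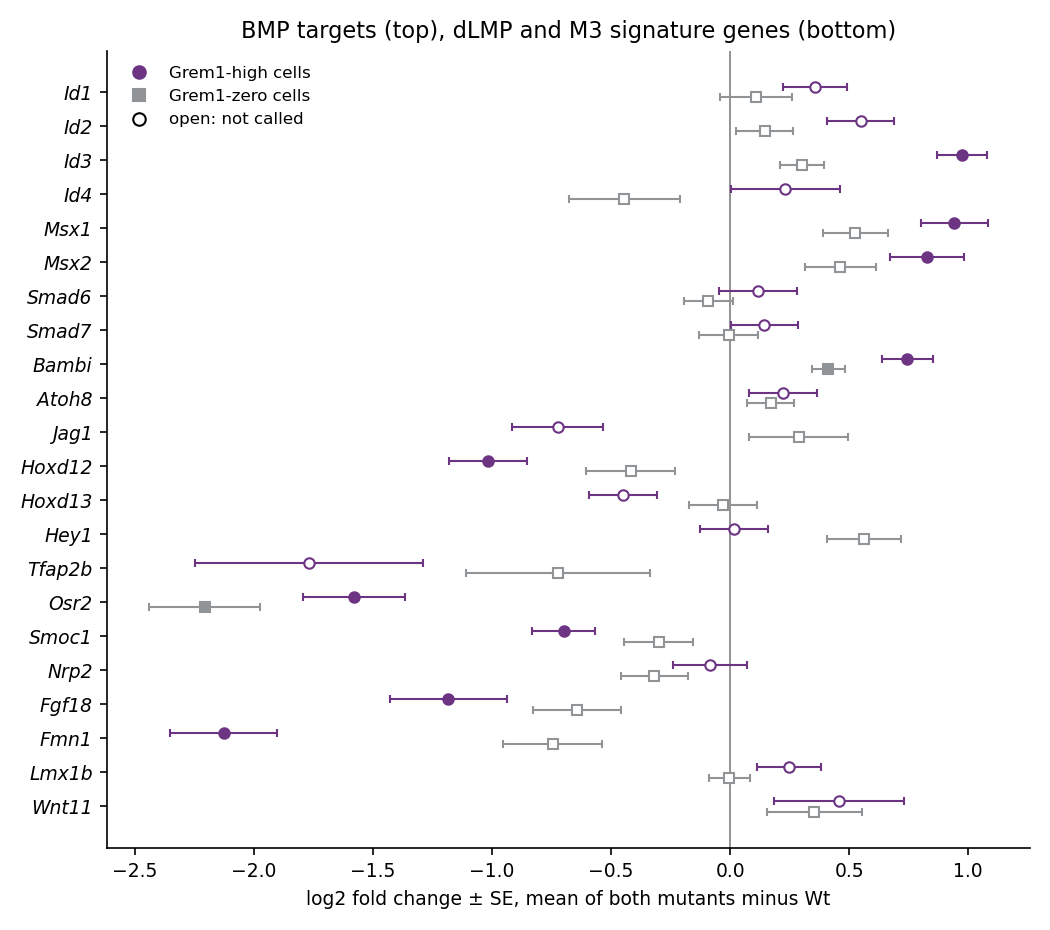
Log2 fold change with SE of the mean of both mutants against Wt in Grem1-high cells (circles) and Grem1-zero cells (squares) for genes of the BMP target, dLMP and M3 lists, filled where the edgeR adjusted p is under 0.05. Id3, Msx1, Msx2 and Bambi are called in Grem1-high cells with values of 0.74 to 0.97, and of these 4 only Bambi is called in Grem1-zero cells (0.41). In Grem1-zero cells of E1C8Δ/Δ alone Id3, Msx1 and Msx2 also lay above Wt without overlap.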

How the data were processed

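Single-cell RNA-seq matrices of 9 libraries (3 of each genotype) were used. Per the labels, the authors made the deposited counts (UMIs per gene and barcode) with the 10x Genomics 3' chemistry from pairs of forelimb buds, and the submitters' processing notes name Cell Ranger 6.0.1, Seurat 4.3.0.1 and mm10. No cell type annotation was used.

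Of 133086 barcodes, 52432 held more than 2500 genes, fewer than 200000 UMIs and under 10% mitochondrial UMIs. Doublets were called by simulated profiles at 0.8% per 1000 barcodes and removed in an alternative only. Cells are not replicates, so the UMIs of the Grem1-high and the Grem1-zero cells were summed per library (minimum 10 cells), and libraries served as replicates. The labels do not say whether the 3 pairs of a genotype share a litter, and p-values measure the spread between these libraries.

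Sums were tested with edgeR 4.0.16 (TMM factors, filterByExpr, quasi-likelihood test, Benjamini-Hochberg adjusted p under 0.05), as 9 sums for the genotypes, and as 18 sums with library as a block for Grem1-high against Grem1-zero cells and its interaction with genotype. Standard errors are the log2 fold change over the root of F. CPM are UMIs per 1000000 UMIs of a library's summed cells and are not compared between genes. Shares of cells are described without a test, since Grem1 chose the cells, and the permutation test planned for them is not given. Thinned shares are hypergeometric expectations at 10000 UMIs per cell. Intervals of shares (Clopper-Pearson, 95%) and limits for a count of 0 (3 counts) cover counting error only.

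The members and the 29 gene lists were chosen with earlier results of these data known. Genes were named by lists and by size: the 10 largest rises and falls called in Wt, the 10 largest in the mutants without overlap, both with at least 10 CPM in the higher group, and the 5 largest of each sign in the interaction. On simulated data with 200 genes changed by 1 on the log2 scale, the comparison of both mutants with Wt found 78.0% of them (11 false calls among 11054 genes), and that of Grem1-high with Grem1-zero cells 84.5% (17 false calls among 13071 genes). The simulated sums shared 1 mean profile apart from those 200 genes. In the real Wt comparison 38.7% of genes were called, so the simulated rates need not hold there. Alternatives were other Grem1 minima, lifted gates, doublet removal, a window of depth, RLE factors, DESeq2 1.42.0, no filter on low counts, a minimum of 20 cells, a replicate block, sex as a covariate and leaving out each library. In the window of depth Wt replicate 3 and E1C8Δ/Δ replicate 1 fell under the minimum of 10 cells and were left out. Depth-matched Grem1-zero cells, libraries with at least 100 Grem1-high cells and male libraries were added after seeing the data. Results of some single genes are not reported here. Gene positions are from GENCODE M21.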

Additional observations from a re-analysis of the deposited data

Results flagged for a closer look

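The results here were picked because a test of the difference between groups passed its threshold (edgeR, adjusted p under 0.05), and no explanation was weighed.

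The first set are genes of the lists, or named by size, whose Grem1-high minus Grem1-zero log2 difference changed between Wt and the mean of both mutants. On the positive side were the BMP target genes Id3 (0.64), Msx1 (0.48), Id2 (0.36) and Bambi (0.31), the ligand gene Bmp4 (0.42), the peripheral progenitor genes Lhx2 (0.37) and Asb4 (0.30), the WNT inhibitor gene Sfrp2 (0.33) and Sox9 (0.31). Camk1d (1.69), Dlx5 (1.49), Nrgn (1.13) and Shox2 (0.52) were also positive. On the negative side were Fmn1 (-1.37), the distal genes Jag1 (-0.93), Hoxd12 (-0.73) and Hoxd13 (-0.58), and Sall1 (-0.61). BMP pathway genes with a negative value were Nbl1 (-0.82) and the co-receptor gene Rgmb (-0.42), hedgehog pathway genes were Ptch1 (-0.29) and Gas1 (-0.21), and Wif1 (-0.47), Runx1t1 (-0.43), Rprml (-1.60) and Pdzd2 (-0.83) completed the list. Against depth-matched Grem1-zero cells Id3 alone was still called, with a list median of 0.37 against 0.33 for the BMP targets and 0.51 against 0.33 for the peripheral progenitor genes.

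The second set differed between the mutants in Grem1-high cells, given as E1C5Δ/Δ minus E1C8Δ/Δ on the log2 scale. The 392 genes called in this comparison fell to 55 without E1C8Δ/Δ replicate 2 and to 78 in cells of 20000 to 60000 UMIs. Higher in E1C5Δ/Δ were Tbx3 (0.81) and Mki67 (0.58). Lower in E1C5Δ/Δ were Id3 (-0.45), Bambi (-0.54), Spry1 (-1.08), an FGF antagonist gene, Dkk2 (-1.29) and Frzb (-0.81), which encode WNT inhibitors, Hoxa10 (-0.62), Hey1 (-0.86), Meox2 (-0.79), Dlx5 (-2.33), Fibin (-1.01), Smim41 (-1.86), Col2a1 (-1.27) and Jun (-0.81). The muscle precursor marker Pax3 (-2.41) was lower in E1C5Δ/Δ as well.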

How the results depend on the processing

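Of 288 values for single genes, 129 kept direction and side of the threshold under every alternative. Of 4681 alternative values 3 reversed: Lef1 in Wt Grem1-high against Grem1-zero cells with the gates on Shh, Hoxa13 and Pax1 lifted (-0.023) and against depth-matched cells (-0.018), and Cdk1 against depth-matched cells (-0.062). Calls were kept in 93.3% of values for Grem1-high against Grem1-zero cells of Wt, 57.1% for both mutants, 54.0% for E1C8Δ/Δ, 67.8% for E1C5Δ/Δ and 57.4% for the interaction. The causes of the changes below were not tested.

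The share of Grem1-high cells for both mutants differed from Wt by -2.26 percentage points after thinning. The E1C5Δ/Δ difference in share changed sign with at least 5 Grem1 UMIs (-2.04), with the gates lifted (-0.834), without called doublets (-0.0937), after thinning (-2.12) and in libraries with at least 100 Grem1-high cells (-1.63), and ran from -1.63 to 2.25 when 1 library was left out.

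Genes called for both mutants numbered 119 with at least 2 and 19 with at least 5 Grem1 UMIs, 9 in cells of 20000 to 60000 UMIs, 137 with DESeq2, 446 without a filter on low counts, 23 with the replicate block, 5 with sex as a covariate, 13 in libraries with at least 100 Grem1-high cells and 13 in male libraries. For E1C8Δ/Δ they numbered 106 with at least 5 Grem1 UMIs, 17 in the window of depth, 858 without the filter, 157 with at least 20 cells per library, 135 with the replicate block, 36 with sex, 195 in libraries with at least 100 such cells and 29 in male libraries, where each mutant is 1 library assumed to vary like the Wt libraries. For E1C5Δ/Δ they numbered 33 in the window of depth, 106 with DESeq2, 410 without the filter, 6 with sex and 8 in male libraries. For Grem1-high against Grem1-zero cells of Wt they numbered 3059 with depth-matched cells. For the interaction they numbered 29 with at least 2 and 27 with at least 5 Grem1 UMIs, 24 in the window, 17 with DESeq2, 157 without the filter and 1 with depth-matched cells. For E1C5Δ/Δ against E1C8Δ/Δ they numbered 392, with 642 at 2 or more and 109 at 5 or more Grem1 UMIs and 1012 without the filter. Leaving out 1 library of the groups compared gave 29 (without Wt replicate 2) to 132 (without E1C5Δ/Δ replicate 3) for both mutants, 38 (without E1C8Δ/Δ replicate 2) to 416 for E1C8Δ/Δ, 32 to 80 for E1C5Δ/Δ, 3320 to 5073 for Wt Grem1-high against Grem1-zero cells and 7 (without E1C8Δ/Δ replicate 3) to 61 for the interaction. Libraries of the third genotype share the fit, and leaving them out gave up to 573 for E1C8Δ/Δ (without E1C5Δ/Δ replicate 3) and 5338 for Wt (without E1C8Δ/Δ replicate 1).

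The labels do not say whether their replicate numbers pair the libraries. Deviations of same-numbered libraries correlated at -0.128 to 0.0696 over 9 pairs, and those of differently numbered ones at -0.142 to 0.253. With sums from few cells this cannot settle the question. The replicate block, with 23 and 135 genes called for both mutants and E1C8Δ/Δ, is therefore given as an alternative. Depth limits genes of few UMIs, since 2 libraries held 17 and 30 Grem1-high cells.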

Other observations

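WNT genes in Grem1-high cells of Wt moved in both directions. Of 15 WNT ligand and inhibitor genes tested 5 were higher than in Grem1-zero cells and 4 lower (edgeR, adjusted p under 0.05), beside 21.7% and 17.0% of all genes, and against depth-matched cells 4 each way, without Lef1. Axin2, a feedback target of WNT signalling, stood at 66.8, 66.5 and 44.6 CPM against 33.0, 34.7 and 24.4 CPM (log2 fold change 0.98, SE 0.05), and the distal ligand gene Wnt5a at 164, 122 and 103 CPM against 87.2, 73.5 and 59.2 CPM (0.83, SE 0.05). Of the secreted inhibitors, Wif1 was higher (1.27, SE 0.08) and Sfrp1 (-1.50, SE 0.06) and Dkk1 (-1.70, SE 0.17) lower, and these 5 were called against depth-matched cells as well. None of the 15 was called for both mutants against Wt in Grem1-high cells, where Axin2 changed by 0.27 (SE 0.14, adjusted p = 0.41).

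Of 10 retinoic acid genes 3 were higher and 5 lower, beside 21.7% and 17.0% of all genes. Against depth-matched cells 2 of 9 were called each way, beside 1572 of 11746 genes called higher and 1487 lower there. Rarb, a receptor gene that responds to retinoic acid, stood at 2.45, 3.88 and 1.67 CPM in Grem1-high and 9.10, 12.0 and 5.90 CPM in Grem1-zero cells of Wt (-1.72, SE 0.11), beside the rise of Cyp26b1 given above. Stra6, which encodes a retinol transporter, stood at 30.1, 26.6 and 43.0 CPM against 18.4, 19.1 and 34.4 CPM (0.56, SE 0.08).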
